A study of Arabidopsis thaliana with 8 samples.

Results

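Regions of histone H3 monomethylated at lysine 4 (H3K4me1) were compared with regions of histone H3 itself in nuclei of non-hair cells, the epidermal cells of the Arabidopsis thaliana root that form no hairs. A gene was said to carry a target when at least 200 bp between its annotated start and end lay under that target's regions. By this rule 5410 of the 27444 protein-coding genes on chromosomes 1 to 5 carried H3K4me1 and not H3, a share of 19.7% (95% exact binomial interval 19.2% to 20.2%). A further 8891 genes (32.4%) carried both, 2798 (10.2%) carried H3 and not H3K4me1, and 10345 (37.7%) carried neither. The 2 libraries came from a series of 8 samples. The plants were of the Col-0 accession and expressed, under the GL2 promoter, a nuclear envelope tag that was biotinylated by BirA under the ACT2 promoter, so that tagged nuclei could be purified by affinity (INTACT). Roots were taken 10 days after germination, and segments of 1.25 cm of the fully differentiated zone were used. Genotype, age and tissue were the same for the H3K4me1 and the H3 library, which differed in the antibody.

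In plants, H3K4me1 is known from the interior of transcribed genes, where it is placed by methyltransferases of the ATX and ATXR families and often occurs together with CG methylation of the DNA. Immunoprecipitation of H3 reports where nucleosomes are recovered, whatever their modification. A region of H3K4me1 without one of H3 is therefore not a place without nucleosomes: both lists hold only the stretches that the authors' caller retained.

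Each target had 1 library, the files gave coordinates without scores or read counts, and the sequencing depth is unknown. No test of a difference between the targets was therefore possible; binomial intervals cover counting error over genes only. H3K4me1 had 31016 regions over 12.5 Mb (10.5% of the nuclear genome), and H3 had 23379 regions over 5.95 Mb (4.99%). Of the H3K4me1 regions 31.2% (30.7% to 31.7%) touched an H3 region, and 18.7% of the bases under H3K4me1 also lay under H3. Region sizes had a floor, at 254 bp for 39.2% of H3K4me1 regions and at 211 bp for 63.4% of H3 regions, so 1 region of the smallest size inside a gene was enough to carry either target. The order of the classes in number changed with the regions used. When only the 9231 longest H3K4me1 regions were kept, which cover as many bases as H3 but are fewer than the H3 regions, 1769 genes had H3K4me1 and not H3, and 6907 had H3 and not H3K4me1.

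4 regions of the smallest size, wholly inside coding exons and introns, show what was counted. They lie in regulators of epidermal cell fate: GL3 is a bHLH factor of non-hair and trichome fate, and TTG1 is the WD40 protein of its complex. TTG2 is a WRKY factor of the same fates, and LRL3 is a bHLH factor of root hair growth. The H3K4me1 regions, of 254 bp each, were chr5:16531249-16531502 in GL3 (plus strand, beginning 2159 bp after the gene's start) and chr2:15645971-15646224 in TTG2 (plus strand, 1160 bp after the start). The H3 regions, of 211 bp each, were chr5:8372031-8372241 in TTG1 (minus strand, 606 bp after the start) and chr5:23484143-23484353 in LRL3 (minus strand, 661 bp after the start). Sequences are from RefSeq TAIR10.1, 5′ to 3′ on the gene's strand, with coding bases in capitals and intron bases in lower case.
GL3: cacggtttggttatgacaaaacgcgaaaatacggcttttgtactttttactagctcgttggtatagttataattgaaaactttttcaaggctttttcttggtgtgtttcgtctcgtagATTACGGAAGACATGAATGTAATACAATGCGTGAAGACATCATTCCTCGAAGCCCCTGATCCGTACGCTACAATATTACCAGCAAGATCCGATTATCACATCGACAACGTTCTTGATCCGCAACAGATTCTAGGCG
TTG2: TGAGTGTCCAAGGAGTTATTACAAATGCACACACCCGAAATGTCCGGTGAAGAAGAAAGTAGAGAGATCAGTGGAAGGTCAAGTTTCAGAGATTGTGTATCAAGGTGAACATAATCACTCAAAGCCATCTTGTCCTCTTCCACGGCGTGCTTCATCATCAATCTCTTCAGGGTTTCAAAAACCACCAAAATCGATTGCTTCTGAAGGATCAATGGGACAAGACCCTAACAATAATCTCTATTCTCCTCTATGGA
TTG1: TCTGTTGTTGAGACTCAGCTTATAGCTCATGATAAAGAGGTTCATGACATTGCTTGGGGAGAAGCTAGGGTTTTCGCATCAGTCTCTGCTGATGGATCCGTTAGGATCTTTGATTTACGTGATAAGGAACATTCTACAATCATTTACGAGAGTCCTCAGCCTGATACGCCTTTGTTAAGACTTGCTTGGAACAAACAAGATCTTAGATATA
LRL3: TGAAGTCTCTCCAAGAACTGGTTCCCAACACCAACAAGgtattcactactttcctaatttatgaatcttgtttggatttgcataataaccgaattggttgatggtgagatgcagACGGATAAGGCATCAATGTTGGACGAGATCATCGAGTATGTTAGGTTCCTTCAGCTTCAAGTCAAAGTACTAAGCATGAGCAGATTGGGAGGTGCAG
The GL3 region covered 136 coding and 118 intron bases and held 17 CG dinucleotides, and the TTG2 region, all coding, held 5. The TTG1 region, all coding, held 5 CG dinucleotides, and the LRL3 region held 4 over 135 coding and 76 intron bases.

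Of the 5410 genes with H3K4me1 and not H3, 5200 (96.1%) had 0 bp under H3. The rule fixes most of this: it allows at most 199 bp, less than the smallest H3 region, so only a region cut by an end of the gene can give another value, and the share among genes with neither was 95.7%. H3K4me1 covered a median of 455.5 bp of these genes (quartiles 254 and 758 bp), or 21.1% of the gene. In 3224 of them (59.6%) it came as 1 region, and in 1485 (27.4%) as exactly 254 bp, the smallest size. Genes with 5 or more H3K4me1 regions numbered 109, and the most on 1 gene was 11. Just inside the threshold lay AT1G06925, AT3G09870 and HB53, with 200 bp of H3K4me1 each. Just outside lay ARR6 with 199 bp and AT2G29780 and AT2G42930 with 197 bp each.

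Carrying 1 target went with carrying the other. H3K4me1 was on 14301 genes in all (52.1%) and H3 on 11689 (42.6%). H3 was carried by 62.2% of the genes with H3K4me1 and by 21.3% of the genes without it. Both rise with gene length, and at like length the shares lay closer: 57.9% and 31.1% in genes of 2000 to 3000 bp, and 66.9% and 37.5% at 3000 to 4000 bp. On the 8891 genes with both, 63.9% of the bases under H3 also lay under H3K4me1, and 25.0% of the bases under H3K4me1 lay under H3. In 1736 of these genes (19.5%) the 2 targets shared no base.

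Gene length separated the targets (length classes include their lower limit and not their upper one). H3K4me1 covered 4.71% of the bases of genes under 1000 bp and 30.7% of the bases of genes of 5000 bp or more, with values of 9.65%, 16.4%, 20.3% and 24.0% in the classes between. H3 covered 5.68% of the shortest class and 6.91% of the longest, and between 6.23% and 6.81% in the others. Long genes were thus the ones with much H3K4me1, and H3 was nearly level across length. The ratio of the longest to the shortest class was 6.52 for H3K4me1 and 1.22 for H3.

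Long genes had more H3K4me1 in their inner sequence too, not at their ends. The first 500 bp of genes carried little H3K4me1 at any length, 4.86% of bases in genes of 1000 to 2000 bp and 2.90% in genes of 5000 bp or more. In the last 500 bp the shares were 8.68% and 6.92%. In the sequence between these end zones H3K4me1 covered 15.1% of bases in genes of 1000 to 2000 bp, 23.2% at 2000 to 3000 bp, 26.3% at 3000 to 4000 bp, 29.6% at 4000 to 5000 bp and 35.1% at 5000 bp or more. H3 covered between 7.38% and 8.16% of the same inner sequence.

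**Figure D1:**
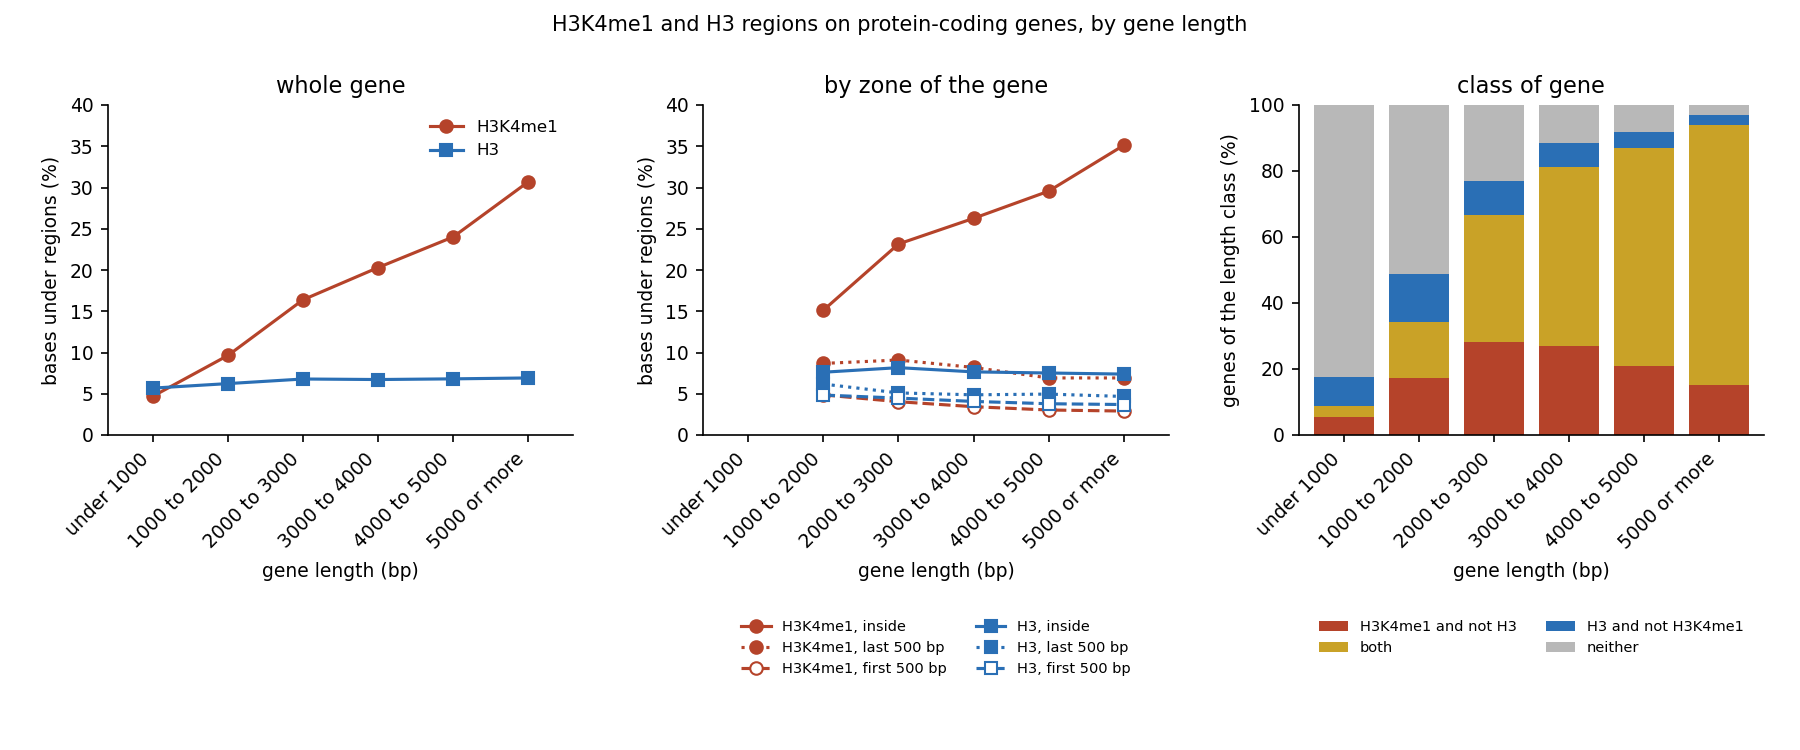
Share of bases under H3K4me1 (red) and H3 (blue) regions by gene length in whole genes (left) and in the first 500 bp, the last 500 bp and the sequence between (middle), and the share of genes in each of 4 classes (right). H3K4me1 rises with gene length to 30.7% of bases in whole genes and 35.1% in the inner sequence, while H3 stays between 5.68% and 6.91% in whole genes.

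As a share of genes, H3K4me1 without H3 was most frequent at middle lengths. It was found on 5.41% of genes under 1000 bp, 17.3% at 1000 to 2000 bp, 28.1% at 2000 to 3000 bp, 1015 of 3764 genes at 3000 to 4000 bp, 20.8% at 4000 to 5000 bp and 15.1% at 5000 bp or more. Both targets were carried by 3.31% of the shortest genes and 78.8% of the longest. H3 without H3K4me1 was found on 8.82%, 14.5%, 10.4%, 6.99%, 4.90% and 3.17% of genes in the same 6 classes. The ratio of genes with H3K4me1 and not H3 to genes with H3 and not H3K4me1 was 0.614 in the shortest class and 4.77 in the longest. Median gene lengths were 2420.5 bp for H3K4me1 and not H3, 2980 bp for both, 1818.5 bp for H3 and not H3K4me1, and 1315 bp for neither. A fixed 200 bp is easier to reach in a long gene by placement alone, a limit that does not touch the shares of bases above.

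The members with 0 bp of H3 were ranked by bases under H3K4me1, an order that favours long genes. AT4G38760, annotated as a nucleoporin, came first and had 5005 bp of H3K4me1 on a gene of 11567 bp with 32 exons (chromosome 4, 18084652 to 18096218, minus strand). AT4G24610 had 4665 bp on 8108 bp, 57.5% of the gene. The class XI myosin genes XID and XIC, whose products are motors on actin filaments, had 3867 and 3563 bp. ESP3, an RNA helicase gene, had 3752 bp, and AT3G11130, which encodes a clathrin heavy chain of coated vesicles, 3578 bp. Next came AT1G72270 (3480 bp), annotated as nucleolar and associated with pre-ribosomes, and KINESIN-12B (3453 bp), a motor of the phragmoplast that builds the new wall at cell division. APC4, a subunit of the anaphase-promoting complex, had 3189 bp, and GYRA, a subunit of DNA gyrase, 3060 bp.

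Length did not fix the amount. UPL1, the longest member at 13369 bp and a ubiquitin ligase gene, had 2350 bp of H3K4me1, or 17.6%. ATRX, an SNF2-type chromatin remodeller gene of 9937 bp, had 2761 bp that began 2823 bp after its start. AT3G24880 had 1270 bp on 10970 bp, and its neighbour AT3G24870, which has the same annotated product, was the second longest gene with 0 bp of both targets at 10755 bp; reads that match near-identical copies may have been assigned to 1 of them, so both values are uncertain. AT1G39070 (12459 bp) was the longest with neither, and RBOH F, an NADPH oxidase gene of 7211 bp, the fifth longest.

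At the other end, short members could be covered almost whole. Of genes of at least 1000 bp, AT1G55865, annotated as a ubiquitin-protein ligase, had the largest share, 88.8% of 1451 bp, followed by AT4G05310 (81.6% of 1248 bp) and AT5G47800, an NPH3 family gene (76.4% of 2917 bp). The SAUR gene AT1G29450 had 72.7% of 1043 bp, and MAN6, a glycosyl hydrolase gene, 71.8% of 1821 bp. The shortest members were AT4G31196 at 243 bp and AT1G74385 at 246 bp, in which a region cut by the ends of the gene left 214 and 224 bp. Among genes with H3 and 0 bp of H3K4me1, AT5G39770 had the most H3, 2087 bp on 8309 bp; AT4G22410 had 1221 bp, AT1G11740 had 959 bp and the cation/H+ exchanger gene CHX20 had 896 bp.

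Along genes with H3K4me1 and not H3, H3K4me1 lay in the interior and, in genes under 5000 bp, nearer to the 3' end. Over the 5173 genes of at least 1000 bp with H3K4me1 and not H3, it covered 2.99% of the first 5% of the gene, 37.9% of the stretch from 55% to 60%, and 6.52% of the last 5%. The mean over the first 25% of the gene was 8.53%, against 16.3% over the last 25%, and the median covered position lay at 54.7% of the gene, counted from its start. On genes with H3 and not H3K4me1, H3 was nearly level between 10% and 90% of the gene. Its coverage was 5.71% in the first 5%, at most 17.6% (45% to 50%) and 6.26% in the last 5%, with a median position of 50.0%.

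In base pairs, the first base under H3K4me1 lay a median of 912 bp after the gene's start (quartiles 590 and 1309 bp), and the last a median of 679 bp before its end (374 and 1052 bp). In 3233 of the 5173 genes (62.5%) H3K4me1 reached nearer to the end than to the start. It came within 200 bp of the start in 6.30% of genes and within 200 bp of the end in 12.7%. On genes with H3 and not H3K4me1 the distances of H3 were 712 and 725 bp, 48.8% of genes had H3 nearer to the end, and H3 came within 200 bp of the start in 16.1% and of the end in 16.3%. Over all these lengths together, H3K4me1 thus kept farther from starts than from ends, and H3 kept about the same distance from each.

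The distance from the start grew less than the gene. For H3K4me1 the median from the start was 638 bp in genes of 1000 to 2000 bp, 974 bp at 2000 to 3000 bp, 1165 bp at 3000 to 5000 bp and 1324.5 bp at 5000 bp or more. Distances from the end were 463.5, 697, 918.5 and 1155 bp in the same classes. H3K4me1 reached nearer to the end than to the start in 61.7%, 65.8%, 60.1% and 52.4% of their genes. On genes with both targets the share was 60.2% at 1000 bp or more and 56.5% at 5000 bp or more. In the 248 genes of 5000 bp or more with H3K4me1 and not H3, the highest coverage, 36.6%, lay at 35% to 40% of the gene. The first and last 5% of these 248 genes had 2.94% and 3.22%, so the lean to the 3' end was small there. In genes of at least 3000 bp, H3K4me1 covered 1.26% of bases in the first 100 bp, 5.79% from 400 to 500 bp, 23.0% from 900 to 1000 bp and 34.0% from 1700 to 1800 bp after the start. H3 on its genes had reached 9.47% by 200 to 300 bp after the start.

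**Figure D2:**
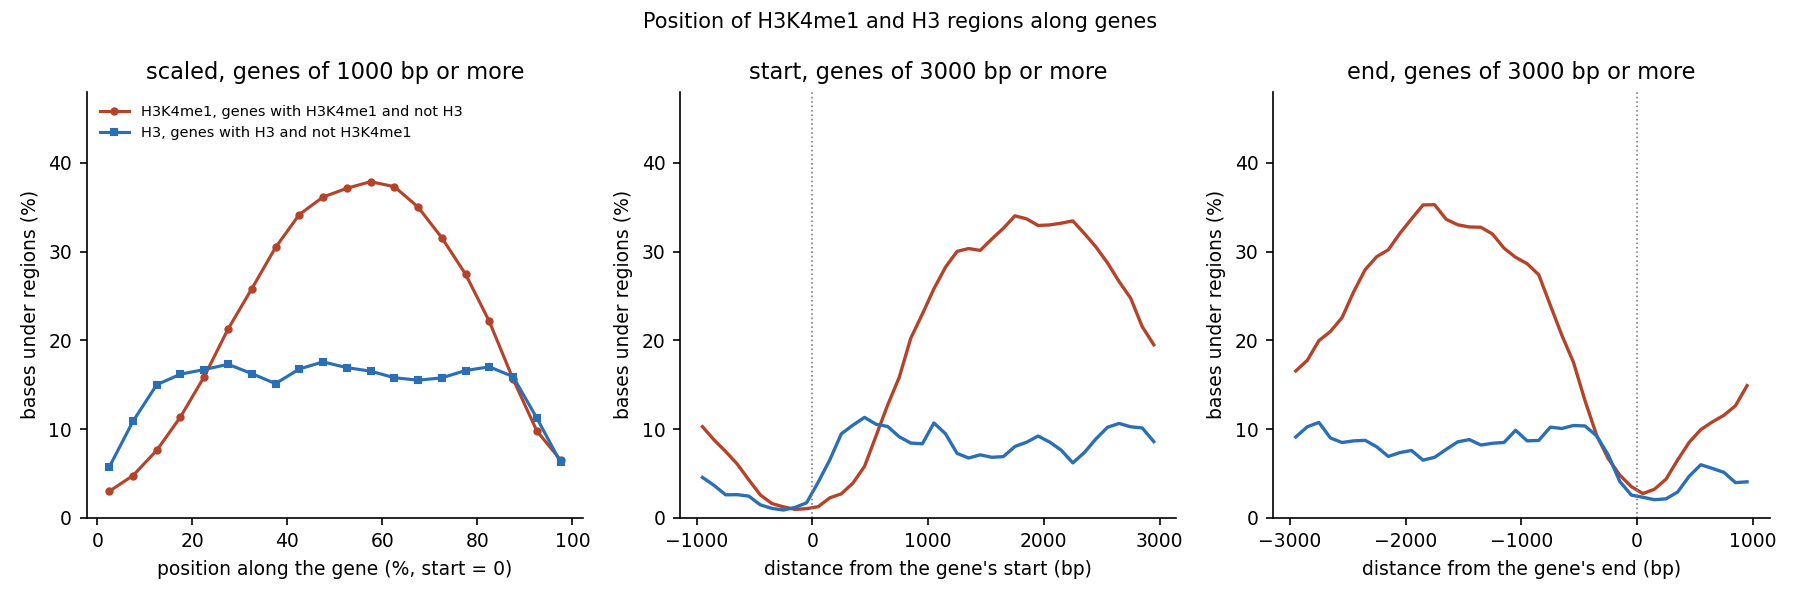
Share of bases under H3K4me1 on genes with H3K4me1 and not H3 (red) and under H3 on genes with H3 and not H3K4me1 (blue), along the gene scaled to its length (left) and by distance from its start (middle) and end (right). H3K4me1 forms a hump with 37.9% at 55% to 60% of the gene, and H3 a plateau of at most 17.6%; outside the gene the curves run into neighbouring genes.

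Coding exons and introns were covered nearly alike by H3K4me1. On genes with H3K4me1 and not H3 it covered 26.4% of coding bases and 26.1% of intron bases, but 4.00% of 5' UTRs and 9.62% of 3' UTRs. On genes with H3 and not H3K4me1, H3 covered 17.6% of coding bases and 10.7% of intron bases, with 8.05% of 5' UTRs and 10.5% of 3' UTRs. The coding value exceeded the intron value by 0.316 percentage points for H3K4me1 and by 6.90 for H3. The small difference for H3K4me1 had no stable sign: it was -0.407 when every base that is exonic in any transcript was counted as exon. Both differences are over genes chosen for carrying 1 target without the other. Over all protein-coding genes H3K4me1 covered 21.4% of coding bases and 22.8% of intron bases, and H3 7.84% and 6.61%, so H3K4me1 was then the lower in coding sequence and the difference for H3 was far smaller. On genes with both targets H3 covered 13.4% of coding bases and 11.2% of intron bases.

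Gene by gene, among 4327 genes with H3K4me1 and not H3 and at least 200 bp of intron, coding sequence was covered more than introns in 2177 (50.3%) and less in 2100, with a median difference of 0.171 percentage points. Among 1809 such genes with H3 and not H3K4me1, H3 covered coding sequence more in 1107 (61.2%) and less in 637, with a median difference of 6.16 percentage points. On genes with both targets, H3 covered coding sequence more in 54.5%.

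Coverage by H3K4me1 changed more with rank along the gene than between exon and intron. In genes of at least 4 exons with H3K4me1 and not H3, H3K4me1 covered 5.61% of first exons, 11.0% of first introns, 23.0% of second exons and 24.6% of second introns. Coverage was 32.8% in the other inner exons and 34.1% in the other inner introns, and then 23.8% in last introns and 12.9% in last exons. H3 on genes with H3 and not H3K4me1 ran between 9.13% and 16.1% over the same ranks. Comparison of each inner intron in the middle of the gene with the exons that flank it gave 33.1% for introns and 32.9% for exons under H3K4me1 (16792 introns). For H3 the values were 9.79% for introns and 13.6% for exons (3745 introns). Introns of 300 bp or more had 29.7% under H3K4me1, against 29.8% in their flanking exons. Under H3, introns of that size had 6.21%, against 13.4% in their flanking exons.

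**Figure D3:**
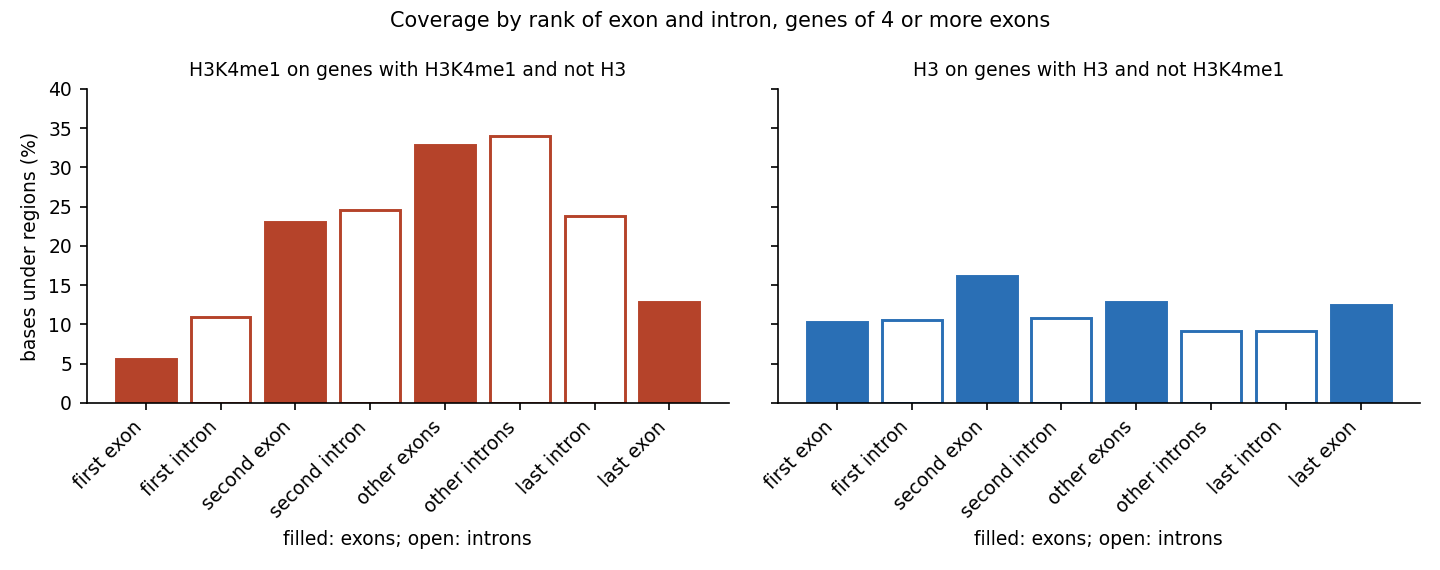
Share of bases under H3K4me1 on genes with H3K4me1 and not H3 (left, red) and under H3 on genes with H3 and not H3K4me1 (right, blue), by rank of exon (filled) and intron (open). H3K4me1 climbs from 5.61% in first exons to 34.1% in inner introns, with second and inner exons close to the introns of the same rank, and H3 is higher in exons than in introns beyond the first.

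Base composition was read under the regions and outside them. Introns of genes with H3 and not H3K4me1 were 33.1% G and C under H3 regions and 30.2% outside them. In introns of genes with H3K4me1 and not H3 the values were 33.5% under H3K4me1 and 32.5% outside. In introns of genes with both targets they were 33.9% and 33.1% for H3, and 33.7% and 32.9% for H3K4me1. Coding sequence had 44.6% under H3 and 44.4% outside on genes with H3 and not H3K4me1. It had 43.8% under H3K4me1 and 44.1% outside on genes with H3K4me1 and not H3. The part of base composition in the coverage was not tested.

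Single genes showed large amounts of intronic H3K4me1. In AT4G38760, 2699 of the 5005 bp under H3K4me1 lay in introns, against 2306 bp in coding exons. AT4G24610 had 2473 bp in introns, APC4 2000 bp, ESP3 1918 bp, and DMS11, an ATPase gene, 1866 bp. In AT1G72270 the balance lay with coding exons, 2809 bp against 602 bp in introns.

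The number of exons went with H3K4me1 beyond gene length. Within genes of 2000 to 3000 bp, H3K4me1 covered 14.0% of bases in genes of 1 exon, 14.2% with 2 to 4 exons, 17.5% with 5 to 9 and 21.8% with 10 or more, and H3 covered between 6.69% and 7.05%. The inner sequence of these genes, without the 500 bp at each end, had 19.6%, 19.7%, 25.0% and 30.2% under H3K4me1. H3K4me1 without H3 was carried by 22.0%, 23.7%, 31.8% and 33.0% of the genes in these 4 classes, and H3 without H3K4me1 by 12.3%, 12.4%, 9.47% and 4.10%. Genes of 1 exon made up 11.1% of the genes with H3K4me1 and not H3, and 21.8% of those with H3 and not H3K4me1.

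Gene function was read from the annotated product names, which put 5448 genes (19.9%) into at least 1 of 38 families. The families with most H3K4me1 were chromatin remodelling and SNF2 helicases (32.5% of bases), RNA helicases (31.5%), nucleoporins and importins (30.6%), SET domain proteins (29.6%), proteasome subunits (28.9%), kinesins and myosins (28.8%), and DNA replication and repair (28.1%). The value over all protein-coding genes was 18.6%. At the low end stood small secreted peptides (0.862%), expansins and extensins (3.72%), class III peroxidases (4.53%), AP2 and ERF factors (4.77%), NAC factors (5.26%), pectin methylesterases and lyases (5.77%), histones and histone-fold proteins (6.18%), GDSL lipases and esterases (6.28%) and aquaporins (6.31%). H3 ran between 2.96% in SAUR genes and 9.29% in proteasome subunits, with 6.64% over all genes, so the families differed far more in H3K4me1. Families also differ in gene length, and no test was made.

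Counts of genes were read against the 19.7% of all genes with H3K4me1 and not H3 and the 10.2% with H3 and not H3K4me1. RNA processing families and translation families each had 110 of 394 genes with H3K4me1 and not H3 (27.9%, 23.5% to 32.6%), above the share of all genes. Chromatin and DNA maintenance had 43 of 207 (20.8%, 15.5% to 26.9%), close to it, and 12 (5.80%) with H3 and not H3K4me1. SET domain genes, which include histone methyltransferases, had 13 of 40 with H3K4me1 and not H3 and 1 with H3 and not H3K4me1. SDG14 (2417 bp) and SDG16 (1632 bp) are trithorax-type members known as ATX3 and ATX4, and SUVH4 (1628 bp) methylates H3 at lysine 9. RNA helicases had 22 of 71 and 2. Aminoacyl-tRNA synthetases had 23 of 64 (35.9%) and 5, led by ALATS, the alanyl-tRNA synthetase gene, with 2948 bp. Pentatricopeptide repeat proteins, which act on organellar RNA, had 74 of 262 (28.2%) and 8 (3.05%). Ribosomal protein genes had 87 of 333 and 36, and for DNA replication and repair the counts were 23 of 89 and 2, with 1965 bp on the mismatch repair gene MSH3 and 1655 bp on MCM3, a subunit of the replicative helicase.

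Long families carried both targets instead. Of 32 genes for chromatin remodelling and SNF2 helicases 27 carried both and 4 H3K4me1 without H3, and of 47 nucleoporin and importin genes the counts were 36 and 6. Neither family had a gene with H3 and not H3K4me1, which allows a share of up to 10.9% and 7.55% (upper ends of the exact intervals).

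Among cytoskeleton, trafficking, signalling and defence families, the interval for leucine-rich repeat receptor kinases and other protein kinases lay above 19.7% over all lengths together. Kinesins and myosins had 28 of 118 genes with H3K4me1 and not H3 and 8 with H3 and not H3K4me1, and genes of the exocyst, vacuolar sorting and adaptors had 29 of 115 and 5. Actins and tubulins had 11 of 36 and 2: ACT8, an actin of vegetative tissue, had 892 bp of H3K4me1 and 0 bp of H3, whereas ACT7 had 0 bp of H3K4me1 and 211 bp of H3. Leucine-rich repeat receptor kinases had 48 of 162 (29.6%, 22.7% to 37.3%) and 16, and other protein kinases 101 of 397 (25.4%, 21.2% to 30.0%) and 25. At 2000 to 3000 bp, where the share of all genes was 28.1%, leucine-rich repeat receptor kinases had 3 of 33 (9.09%, 1.92% to 24.3%). Other protein kinases had 41 of 147 there (27.9%, 20.8% to 35.9%). The interval for leucine-rich repeat receptor kinases thus lay below 28.1% at that length, and the interval for other protein kinases held it. NLR disease resistance genes, immune receptors inside the cell, had 34 of 159 and 10, with 1527 bp on RPS4.

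In several families of wall enzymes, metabolic enzymes and regulators, H3 without H3K4me1 was more frequent than H3K4me1 without H3 over all lengths together. In the families named next, the intervals of these shares overlapped, and genes with neither target were the largest class. Pectin methylesterases and lyases had 26 of 239 genes (10.9%, interval 7.23% to 15.5%) with H3K4me1 and not H3, and 44 (18.4%, 13.7% to 23.9%) with H3 and not H3K4me1. Class III peroxidases had 8 of 76 and 14, cytochrome P450s 39 of 248 and 43, MYB factors 15 of 126 and 22, and MADS-box factors 15 of 120 and 19. At 2000 to 3000 bp class III peroxidases had 4 of 17 and 2, the reverse order, and the others named kept theirs. Over all lengths, other such families ran the other way by small margins. The bHLH factors had 29 of 135 and 22, and expansins and extensins 7 of 60 and 6. Histones and histone-fold proteins, mostly short genes, had 3 of 46 and 9; the 3 were HTA8, an H2A.Z gene (600 bp), HTR12, the centromeric H3 gene (254 bp), and LEC1, a factor with a histone fold (254 bp). Small secreted peptides had 2 of 385 (0.519%) and 31 (8.05%), and the 2 were CLE45 (396 bp) and RALFL24 (224 bp).

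Among genes of like length the low shares of cell wall and metabolic families held. The high shares of RNA processing and translation families were no longer set apart from that of all genes. In genes of 2000 to 3000 bp, where 28.1% carried H3K4me1 and not H3 and 10.4% H3 and not H3K4me1, chromatin and DNA maintenance had 17 of 38 genes with H3K4me1 and not H3 (44.7%, 28.6% to 61.7%) and 2 with H3 and not H3K4me1. Translation had 23 of 65 (35.4%, 23.9% to 48.2%) and 3. RNA processing had 40 of 156 (25.6%, 19.0% to 33.2%) and 6 (3.85%). Cell wall families had 17 of 107 (15.9%, 9.54% to 24.2%) and 21 (19.6%), and metabolic families 29 of 197 (14.7%, 10.1% to 20.5%) and 31 (15.7%). For transcription factors the counts were 36 of 152 (23.7%, 17.2% to 31.2%) and 21 (13.8%), and for transport across membranes 3 of 30 (10.0%, 2.11% to 26.5%) and 7. Of these 7 groups, the interval for H3K4me1 and not H3 lay above 28.1% for chromatin and DNA maintenance, below it for cell wall, metabolism and transport across membranes, and held it for translation, RNA processing and transcription factors.

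**Figure D4:**
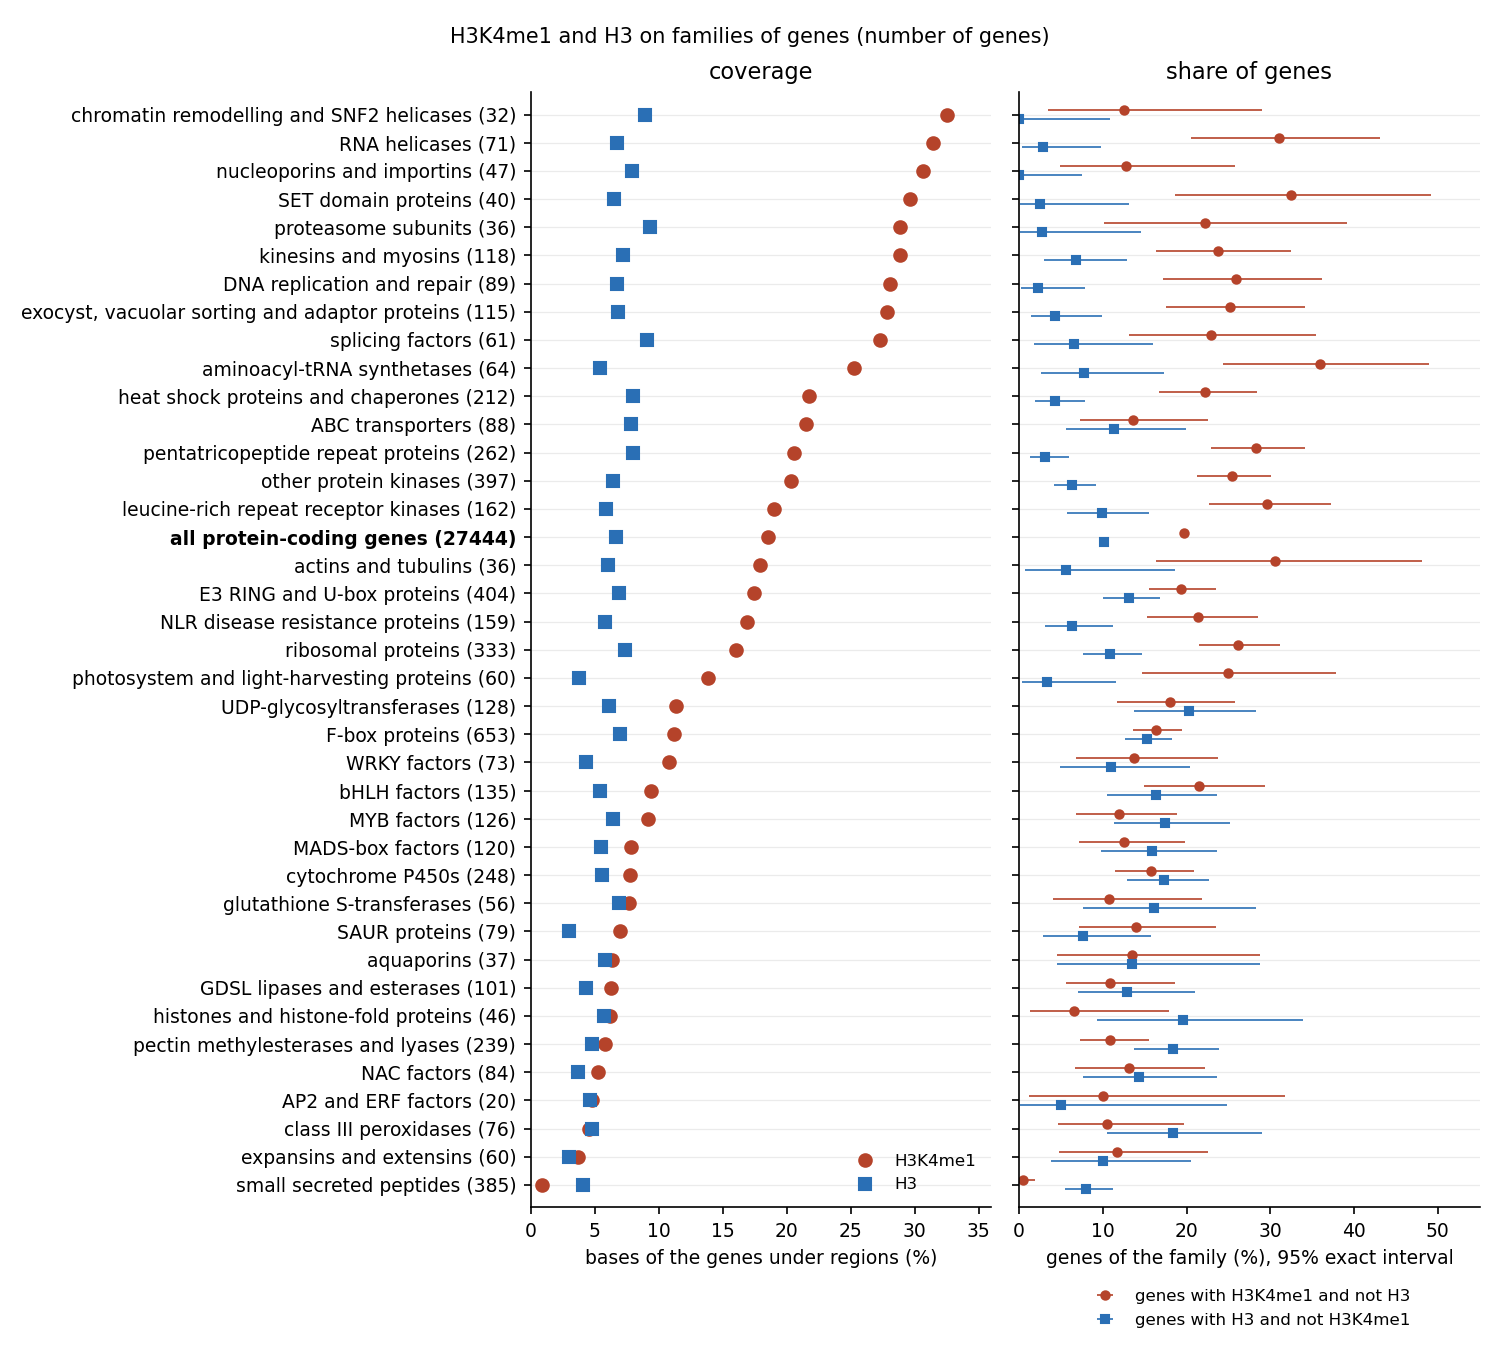
Left, share of bases under H3K4me1 (red circles) and H3 (blue squares) in each family, ordered by H3K4me1; right, share of the family's genes with H3K4me1 and not H3 (red) and with H3 and not H3K4me1 (blue), with exact intervals. H3K4me1 spans 0.862% to 32.5% of bases and H3 2.96% to 9.29%.

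Markers of cell types were read in lists of 4 to 10 genes, too few to tell whether non-hair cells stand apart. Of 10 regulators of the choice between non-hair and hair fate, for or against non-hair fate, GL3 (589 bp) and TTG2 (254 bp) carried H3K4me1 and not H3. GL2, whose promoter drove the tag and whose product represses hair growth, carried both (942 bp of H3K4me1, 211 bp of H3), as did the bHLH gene EGL3 (330 and 211 bp). The MYB gene WER and the WD40 gene TTG1 had 0 bp of H3K4me1 and 211 and 422 bp of H3, and CPC, MYB23, TRY and ETC1 had 0 bp of both. In 10 root hair genes, EXPA18 (254 bp) carried H3K4me1 and not H3, RBOHC carried both, RSL4 and LRL3 had 211 bp of H3 alone, and 6 carried neither. H3K4me1 was carried by 4 of the 10 regulators of this choice, 2 of 10 root hair genes, 6 of 9 endodermis genes, 2 of 6 stele genes and 2 of 4 root cap genes. Over all protein-coding genes the share with H3K4me1 was 52.1%, and the share with H3K4me1 and not H3 was 19.7%. Endodermis genes with H3K4me1 and not H3 included CASP4 (339 bp) and SCR (254 bp), stele had SUC2 (254 bp), and root cap had the NAC genes SMB (688 bp) and FEZ (537 bp). The part of nuclei of other cells in these values was not tested.

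The other targets of the series were read on the same genes. H3K27ac, an acetylation of active genes, was carried by 67.6% of genes with H3K4me1 and not H3 (66.4% to 68.9%) and by 47.1% of genes with H3 and not H3K4me1 (45.2% to 49.0%), against 56.6% of all genes. H3K4me3, known from starts of active genes, was carried by 30.6% and 19.7%, against 25.7% of all genes. H3K27me3, the mark of Polycomb silencing, ran the other way, with 37.6% (36.3% to 38.9%) and 57.0% (55.1% to 58.8%), against 41.9%. For the histone variant H2A.Z the shares were 41.3% and 45.7%, against 38.2%. No region of these 4 was long enough on 3.42% of genes with H3K4me1 and not H3, 8.94% with H3 and not H3K4me1, and 20.8% with neither.

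The contrast in H3K27me3 and H3K27ac was also seen among genes of like length. Among genes of 2000 to 3000 bp, 2085 had H3K4me1 and not H3, and 770 had H3 and not H3K4me1. H3K27me3 was on 36.6% and 63.1% of them, against 44.6% of all genes of that length. H3K27ac was on 71.8% and 54.5%, against 68.6%. Among genes of 3000 to 4000 bp H3K27me3 was on 39.9% and 67.7%, against 45.4%, and H3K27ac on 78.2% and 50.2%, against 74.5%. H3K4me3 was on 34.3% and 27.8% at 2000 to 3000 bp, against 32.6% of all genes of that length. At 3000 to 4000 bp it was on 40.2% and 21.3%, against 38.0%. At these lengths genes with H3K4me1 and not H3 thus stood close to all genes of their length in H3K27ac and H3K4me3. At 1000 to 2000 bp they did not in H3K27ac, which was on 58.5% of them (56.0% to 61.0%), against 50.2% of all genes. H3K4me3 was on 20.6% of them there and on 18.6% of genes with H3 and not H3K4me1, against 18.7% of all genes. At 2000 to 3000 bp genes with both targets had more of each of these marks than genes with H3K4me1 and not H3. H3K27me3 was on 40.6% of them, against 36.6%, and H3K27ac on 79.3%, against 71.8%. H3K4me3 was on 38.5%, against 34.3%, and H2A.Z on 47.5%, against 38.8%. Genes with neither had H3K27me3 on 52.6% and H3K27ac on 53.1% at that length.

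**Figure D5:**
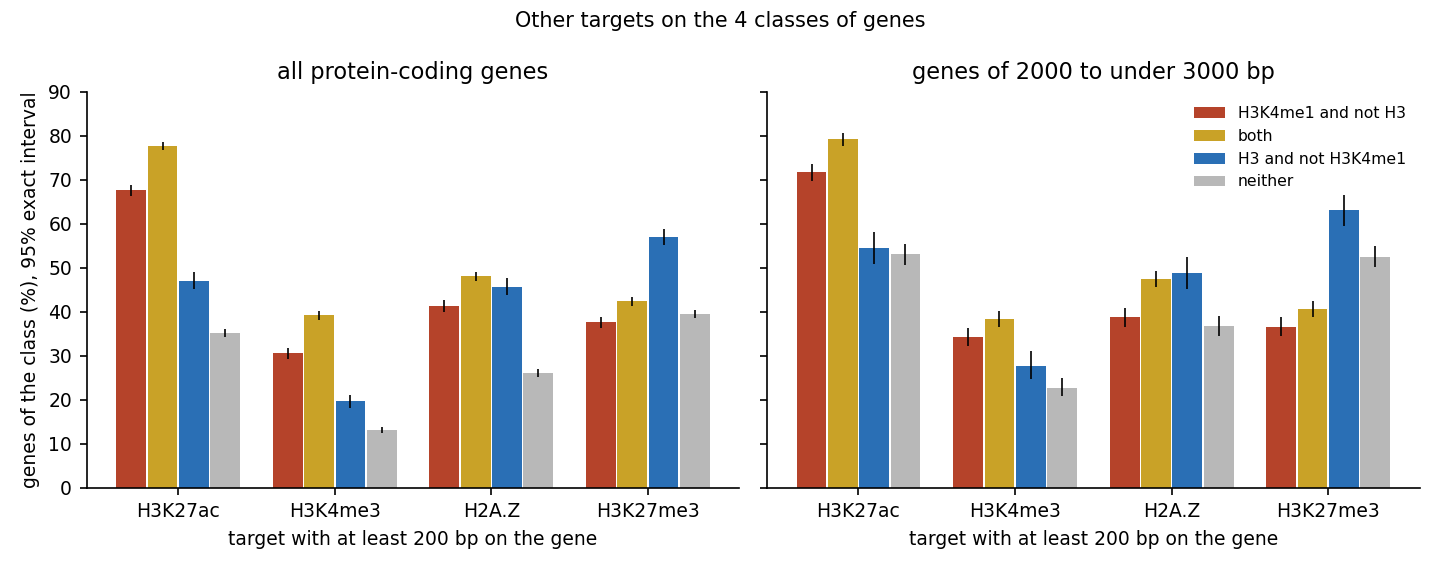
Share of genes that carry at least 200 bp of 4 other targets in each class of gene, for all genes (left) and for genes of 2000 to 3000 bp (right), with exact intervals. Genes with H3K4me1 and not H3 (red) have less H3K27me3 and more H3K27ac than genes with H3 and not H3K4me1 (blue) in both panels.

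Coding sequence also differed in CG dinucleotides, a measure read because methylated CG is lost over evolutionary time and H3K4me1 is known to share genes with CG methylation. The observed number of CG in coding sequence, divided by the number its C and G content would give, had a median of 0.659 in genes with H3K4me1 and not H3 (quartiles 0.557 and 0.786) and 0.775 in genes with H3 and not H3K4me1 (0.628 and 0.935). It was 0.628 with both and 0.801 with neither. In genes of 2000 to 3000 bp the medians were 0.666 for H3K4me1 and not H3, 0.657 for both, 0.771 for H3 and not H3K4me1 and 0.773 for neither. Genes with H3K4me1 thus had lower values than genes without it, and within each of these groups the presence of H3 made little difference at this length. The overall C and G content of coding sequence lay between 43.9% and 44.5% in the 4 classes. DNA methylation was not measured in these samples.

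The chromosomes were alike. H3K4me1 without H3 was carried by 17.9% of genes on chromosome 2 and 20.2% on chromosome 5, with the others between. Within 3 Mb of the centromere centres lay 401 of the genes with H3K4me1 and not H3 (7.41%) and 453 of those with H3 and not H3K4me1 (16.2%). Of the 3175 genes in these flanks 12.6% carried H3K4me1 and not H3 and 14.3% H3 and not H3K4me1, and on the 24269 genes of the arms the shares were 20.6% and 9.66%. The next gene along the chromosome carried H3K4me1 and not H3 after 22.2% of genes of the same class, 21.3% of genes with both, 18.3% of genes with H3 and not H3K4me1 and 17.4% of genes with neither, against 19.7% of all genes; genes that overlap can share a region.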

How the data were processed

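The authors deposited lists of called regions, so every value is a coordinate or a count of base pairs; no score, signal or read count was given. The submitters' processing notes name Bowtie2, HOMER, deepTools 2.0, SAMtools 0.1.19 and build TAIR10. How regions were called (settings, threshold, control library) and the depth are not stated there.

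Regions on chromosomes 1 to 5 were set against 27444 protein-coding genes of RefSeq TAIR10.1, whose nuclear coordinates are those of TAIR10; each gene was represented by the transcript with the longest coding sequence. A gene carried a target at 200 bp or more. Exact (Clopper-Pearson) 95% intervals cover counting error over genes. Named genes were taken by rank (most bases, largest share, most intronic bases, shortest, longest, most bases per family), together with marker genes; some genes that these rules name are not reported here. The computation was checked on simulated regions. Members, families and lists were chosen with earlier results of these data known, and the word patterns of the families were refined on the annotated product names. Alternatives changed the rule for carrying, the regions, the genes and the definition of exons. Inputs were not analysed here.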

Additional observations from a re-analysis of the deposited data

Results flagged for a closer look

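The H3 list held 4 regions on the mitochondrial sequence, outside the chromosomes analysed, where the H3K4me1 list held 0; each of the 4 had the smallest size of the H3 list, 211 bp. Plant mitochondria have no nucleosomes. The lists of H3K4me3 and H3K27me3 held 1 and 2 such regions. Where these regions come from was not tested.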

How the results depend on the processing

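Number of genes with H3K4me1 and not H3 (5410) became 8342 when at least 10% of the gene had to be covered, 3570 without genes that overlap another gene, and 1769 with the 9231 longest H3K4me1 regions, which cover as many bases as H3. Genes with H3 and not H3K4me1 (2798) became 1563 without regions of the smallest size and 6907 with equal bases. Median length of genes with H3K4me1 and not H3 (2420.5 bp) was 2391 bp with a rule of 1 bp, 2803 bp with 10% of the gene, 2836 bp without regions of the smallest size and 2850 bp with equal bases. Genes with coding sequence covered more than introns (50.3%) were 48.3% with equal bases, and genes with H3K4me1 nearer to the end (62.5%) were 59.5% without regions of the smallest size and 59.1% with equal bases. The coding minus intron difference of H3K4me1 (0.316 percentage points) turned to -0.00166 with 1 bp, -0.146 with 10% of the gene and -0.407 with exons of any transcript, while that of H3 (6.90) ran from 4.35 to 7.43, always over genes with H3 and not H3K4me1. The ratio of coverage between the longest and shortest genes ran from 5.98 to 16.9 for H3K4me1 and from 1.17 to 1.25 for H3. With fewer regions or genes the change in counts follows from the alternative itself; other causes were not tested. No paired analysis was possible because each target had 1 library. Unknown depth limits all comparisons of how much H3K4me1 and H3 cover.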

Other observations

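Genes that encode no protein differed from the protein-coding ones. Genes annotated as pseudogenes, many of which in this annotation derive from transposable elements, had 1.41% of their bases under H3K4me1 and 6.99% under H3, at a median length of 2043 bp, close to the 2078 bp of protein-coding genes, which had 18.6% and 6.64%. Of 3917 pseudogenes, 58 (1.48%, 1.13% to 1.91%) carried H3K4me1 and not H3 and 1217 (31.1%, 29.6% to 32.5%) H3 and not H3K4me1. Pseudogenes annotated as transcribed had 69 of 926 (7.45%) and 122 (13.2%), with 5.61% of bases under H3K4me1 and 6.09% under H3. Long noncoding RNA genes, with a median length of 343 bp, had 201 of 3480 (5.78%) with H3K4me1 and not H3 and 156 (4.48%) with H3 and not H3K4me1; some lie inside or antisense to protein-coding genes, whose regions then count for both.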
